A study of Mus musculus with 12 samples.

Results

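RNA-Seq of naive mouse B cells was compared with that of the B cells which had expanded by day 4 of culture with lipopolysaccharide (LPS) and still carried CD22. The comparison took the 2 libraries labelled Naive and the 2 labelled Ab, 4 of the 12 libraries of the series, and it asks what remains altered in the expanded cells and which genes of B-cell identity remain at the level of the naive cell. All mice were male C57BL/6 animals (by the methods, of a C57BL/6 Pep3b background) aged 6 to 12 weeks, with no transgene named for these libraries. Naive cells came straight from the spleen, without treatment, and were sorted with a panel that included TCRβ-, B220+, IgM+ and IgDhi. Expanded cells began as splenic B cells enriched by negative selection, were grown at low density with 25 μg/ml LPS of Salmonella typhosa, and were sorted on day 4 as CD22+ CD138-. The methods give no gate on the division dye for this sort, so how often each cell had divided is not known from these libraries. Culture, LPS, the 4 days and the change of sorting gate came together, and their contributions cannot be told apart. The undivided cells taken at 3, 10 and 33 h and the CD22- CD138+ plasmablasts of day 4 are used here only as reference levels.

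A naive follicular B cell is a resting cell that carries IgM and IgD, circulates through the follicles and presents antigen on MHC class II. LPS is sensed by Toll-like receptor 4 and its partners, and drives B cells into growth, repeated division, class switching and, in a share of cells, antibody secretion. Pax5, Ebf1 and the E proteins maintain the B-cell program, whereas Prdm1 (Blimp-1) and Xbp1 direct the plasma cell program and the secretory apparatus. CD22, an inhibitory coreceptor of the B cell receptor (BCR), is lost as cells become plasmablasts, so a CD22+ CD138- gate selects cells that have not yet completed that step.

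Total counts were 38319954 and 29898781 in the naive libraries and 41861977 and 35158294 in the expanded libraries. Levels are given as RPKM, counts divided by exon length and by the TMM-scaled size of the library, and are shares of a library, so that less RNA of a gene per cell and fewer cells with that RNA cannot be told apart. A gene was called higher or lower where its change exceeded 1.5-fold in edgeR's glmTreat test at a Benjamini-Hochberg adjusted p under 0.05 over the 12750 genes tested. It was called at the naive level where 2 one-sided tests from the same fit placed the change inside 1.5-fold at the same adjusted threshold, and undecided otherwise. By these rules 3180 genes were higher in expanded cells (24.9%), 2835 were lower (22.2%), together 47.2%, and 1880 were at the naive level (14.7%), which left 4855 undecided. The gene lists below held 471 genes, of which 14 were not tested, 5 because they lie on the X or Y chromosome and 9 for low counts. The median log2 fold change of all tested genes was 0.03, and that of the called genes had a median size of 1.61. The log2 ratio between replicates varied over genes with an SD of 0.39 for naive and 0.30 for expanded cells. The smallest two-sided p that permuting 2 and 2 libraries allows is 0.333, so the p-values rest on the spread that the fit shares across genes and stages.

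**Figure D1:**
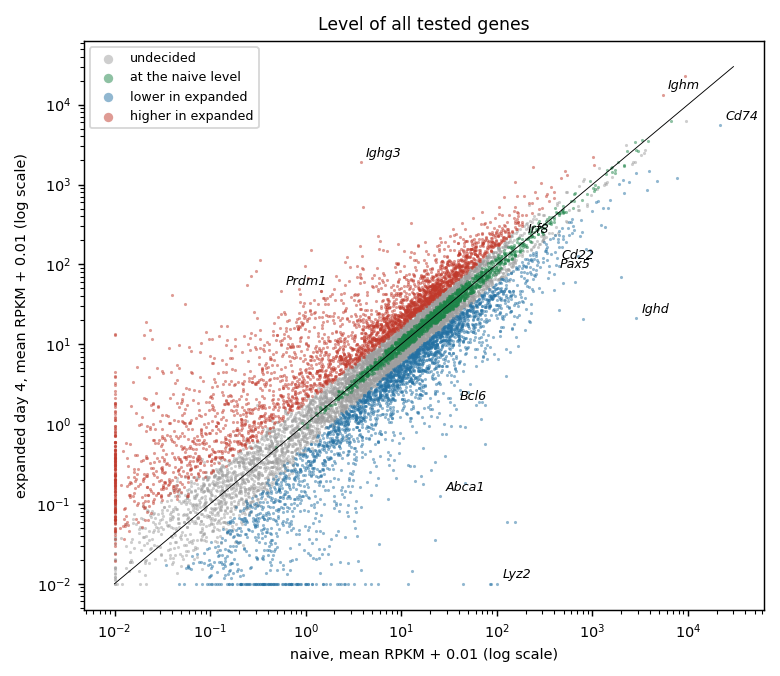
Mean RPKM of each of the 12750 tested genes in naive cells (x axis) and in expanded day 4 cells (y axis), both on log scales after adding 0.01, coloured by call, with the line of equal levels. Ighg3 and Prdm1 lie far above the line, Ighd, Bcl6 and Abca1 far below it, and Irf8 close to it.

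The markers of the sorts followed the labels in part. Ighd, whose product defined the naive gate, stood at 2879 and 2893 RPKM in naive cells and at 19.2 and 23.0 RPKM in expanded cells. Cd22 stood at 413 and 414 RPKM in naive and at 101 and 96.1 RPKM in expanded cells, a log2 fold change of -2.07 (SE 0.12, adjusted p = 9.3e-08). The expanded cells thus still carried Cd22, the transcript of their sorting marker, below the naive level, at 98.8 ± 3.7 RPKM (SD, n = 2). In plasmablasts it was 0.400 ± 0.045 RPKM. Sdc1, which encodes CD138, was 8.54 and 7.72 RPKM in naive, 1.27 and 1.71 RPKM in expanded cells (log2 fold change -2.46) and 47.8 RPKM in plasmablasts. Ptprc, the gene of B220 and other CD45 isoforms, fell by 1.54 on the log2 scale. Both groups carried the transcripts of Cd79a, Cd79b, Ms4a1 and Pax5 in all 4 libraries.

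Markers of other cells were higher in the naive libraries, and their part in the results below was not tested. Myeloid and dendritic markers summed to 412 and 166 RPKM in naive and 26.5 and 25.0 RPKM in expanded cells. Among the 14 tested, 9 fell (background 22.2%), 3 rose (background 24.9%) and 2 were undecided. Lyz2, a lysozyme of macrophages and granulocytes, stood at 141 and 60.2 RPKM in naive cells and had no count in either expanded library, at least 1286-fold lower against 3 counts per library. S100a9 (130 and 44.6 RPKM) and S100a8 (122 and 48.0 RPKM) were also without a count in expanded cells. Flt3, a growth factor receptor of progenitors and dendritic cells, ran the other way, from 0.888 and 0.774 RPKM in naive to 16.2 and 15.1 RPKM in expanded cells, and was named after its value was seen. Erythroid and platelet markers summed to 381 and 291 RPKM in naive and 0.405 and 0.550 RPKM in expanded cells, and all 5 tested fell (background 22.2%). T and NK cell markers were low throughout, with sums of 17.3 and 16.3 RPKM in naive and 2.68 and 3.14 RPKM in expanded cells. Among the 12 tested, 9 fell (background 22.2%) and 1 rose (background 24.9%). Of the T-cell receptor genes, Trac was 0.414 and 0.544 RPKM in naive and 0.540 and 0.518 RPKM in expanded cells. Cd3e, Trbc1 and Trbc2 had at most 2 counts in any expanded library. Among the listed markers, Lyz2, S100a8, S100a9, Csf3r, Mpo, Ly6g, Gzma, Klrk1, Ncr1, Ppbp and Pf4 had no count in either expanded library. Those that rose did so by 1.61 to 4.22 (3 myeloid and dendritic) and by 2.82 (1 T and NK) on the log2 scale.

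**Figure D2:**
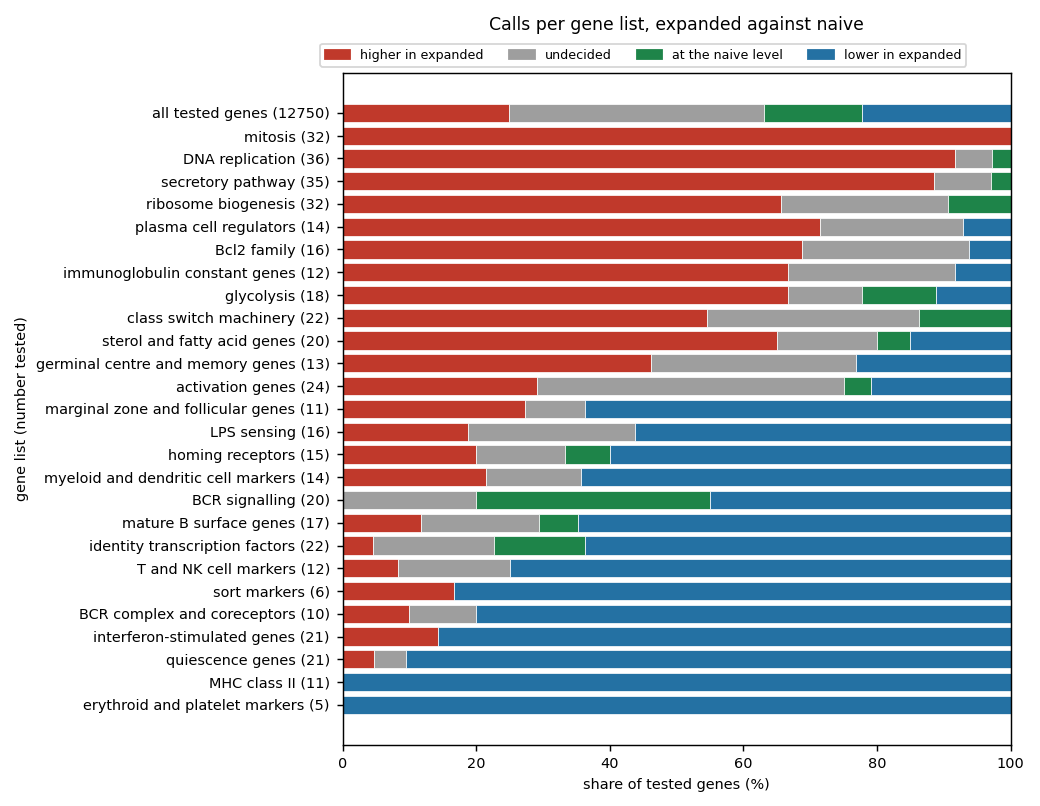
Share of the tested genes of each list (y axis, number tested in brackets) that was called higher in expanded cells (red), lower (blue), at the naive level (green) or undecided (grey), with all 12750 tested genes in the top bar. All 32 mitosis genes were higher and all 11 genes of the MHC class II list were lower, whereas the BCR signalling list had 7 of 20 genes at the naive level.

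Among abundant genes (log2 CPM of 5 or more, averaged over the 4 libraries), the immunoglobulin constant genes Ighg3 and Ighg1 gave the largest rises, and Ighd was among the largest falls. Of 12 tested, 8 rose (background 24.9%), 1 fell (background 22.2%), none was at the naive level and 3 were undecided. Their median log2 fold change was 1.40 against 0.03 over all tested genes. Ighg3 (Entrez 380795, chr12:113357442-113361232 of GRCm38), the constant gene of IgG3, the isotype to which LPS is known to switch mouse B cells, was at 3.76 and 3.75 RPKM in naive cells and at 1588 and 2203 RPKM in expanded cells. The groups did not overlap, and the log2 fold change was 8.98 (SE 0.28, adjusted p = 4.2e-09). At 33 h Ighg3 was still at 11.2 ± 3.7 RPKM (SD, n = 2), and in plasmablasts it reached 4687 ± 1011 RPKM. Ighd (Entrez 380797, chr12:113407535-113416324), the constant gene of IgD, fell by 7.10 on the log2 scale (SE 0.26, adjusted p = 3.6e-08). Its level was 360 ± 161 RPKM at 33 h, between the naive and the expanded values, and 3.32 ± 0.95 RPKM in plasmablasts.

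The other γ constant genes were low in naive cells and higher in expanded cells. Ighg2b was 4.47 and 3.43 RPKM in naive and 459 and 578 RPKM in expanded cells, a rise of 7.02. Ighg1 rose from 0.200 and 0.446 to 81.5 and 142 RPKM, a log2 fold change of 8.49 with the larger SE of 0.62, and of 9.12 without naive replicate 2. Ighg2c rose least, from 0.557 and 3.12 to 6.04 and 6.76 RPKM (1.87, adjusted p = 0.013), the naive replicates differed more than those of the other γ genes, and the call was lost in a fit to the 4 libraries alone. Its log2 fold change was 1.04 without naive replicate 1 and 3.52 without naive replicate 2. These genes are close copies of each other, so reads could be split between them, and counts over constant exons do not tell germline transcripts from switched ones. Ighe, the constant gene of IgE, had 0 and 1 counts in naive and 5 and 5 in expanded cells, too few for testing. Igha was 12.1 and 9.69 RPKM in naive and 7.21 and 6.64 RPKM in expanded cells and was undecided.

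Ighm, the μ constant gene, was already high in naive cells and rose further, from 5407 and 5506 to 12150 and 14420 RPKM (1.28, SE 0.13, adjusted p = 6.3e-05). Counts over the whole gene do not separate membrane from secreted μ transcripts. Igkc, the κ light chain, rose by a similar log2 value of 1.28, from 9037 and 9652 to 19650 and 25760 RPKM. The λ light chain genes differed from each other, as Iglc1 rose by 1.52, whereas Iglc2 (0.42) and Iglc3 (-0.54) were undecided, and reads of these near-identical genes could also be split. Jchain, which joins IgM and IgA into polymers, rose from 16.4 and 9.13 to 290 and 372 RPKM (4.69), against 7997 RPKM in plasmablasts.

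Most transcription factors of B-cell identity were lower in expanded cells, and the share shown to hold the naive level was near that of all tested genes. Of 22 tested, 14 fell (background 22.2%), 1 rose (background 24.9%), 3 were at the naive level and 4 were undecided. Together 15 changed (background 47.2%) and 3 were held (background 14.7%). The median log2 fold change was -1.26. The members at the naive level were the E protein genes Tcf3 and Tcf12 and the interferon regulatory factor gene Irf8.

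Bcl6 (Entrez 12053, chr16:23965050-23988866), a repressor that opposes Prdm1 and is needed for germinal centres, fell most, from 32.7 and 38.7 to 1.77 and 1.65 RPKM. Its log2 fold change was -4.38 (SE 0.16, adjusted p = 8.4e-10), and its expanded level lay below those at 33 h (8.46 ± 2.06 RPKM) and in plasmablasts (2.80 ± 0.16 RPKM). Ets1, a factor that restrains plasma cell formation, was 307 and 294 RPKM in naive and 44.4 and 44.6 RPKM in expanded cells, a log2 fold change of -2.76. Its mean was 41.4 RPKM at 33 h, a level already as low as in the expanded cells. Hhex fell by 2.75, from 106 and 115 to 16.8 and 16.0 RPKM, and Bach2, a repressor of Prdm1, fell by 2.46, from 37.9 and 36.8 to 6.83 and 6.70 RPKM.

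Pax5 (Entrez 18507, chr4:44524748-44710694), the factor that commits cells to the B lineage, was 408 and 385 RPKM in naive and 77.2 and 75.4 RPKM in expanded cells. The log2 fold change was -2.38 (SE 0.16, adjusted p = 4.8e-07), and the groups did not overlap. Pax5 was at 145 ± 32 RPKM at 33 h and at 6.98 ± 0.79 RPKM in plasmablasts, so the expanded level lay between them. Ebf1, its partner in specification of the lineage, fell by 1.57, from 83.2 and 84.0 to 28.8 and 27.5 RPKM. Spib (-1.83) and Spi1 (-0.89), which encode related ETS factors, fell by unequal amounts, and Spib at 118 and 119 RPKM remained above the 2.62 RPKM of plasmablasts. Foxo1 (-1.64), Mef2c (-1.65), Id3 (-1.80), Bcl11a (-1.28), Runx1 (-1.24) and Ikzf3 (-0.84) completed the list of those that fell.

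Tcf3 (Entrez 21423, chr10:80409541-80433976), which encodes the E2A proteins, was 101 and 94.0 RPKM in naive and 117 and 113 RPKM in expanded cells. The 95% interval of its log2 fold change ran from 0.07 to 0.40, inside the 1.5-fold limits (adjusted p = 0.0055 of the 2 one-sided tests). Irf8 was 178 and 188 RPKM in naive and 210 and 212 RPKM in expanded cells (interval 0.02 to 0.39, adjusted p = 0.0058). Both genes were slightly higher in both expanded libraries, so held means within 1.5-fold and not equal. Irf8 had passed through 452 RPKM at 3 h and stood at 79.9 ± 1.6 RPKM in plasmablasts, whereas Tcf3 kept between 66.8 and 115 RPKM as stage means throughout. Tcf12 was 26.5 and 27.5 RPKM in naive and 22.8 and 24.1 RPKM in expanded cells (-0.20, adjusted p = 0.027). When any of the 4 libraries was left out, at most 1 factor was called at the naive level. Tcf3 lost the call without naive replicate 1 or expanded replicate 2, Irf8 without naive replicate 2 or either expanded library, and Tcf12 lost the call whichever library was left out.

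The undecided factors were Elf1 (-0.61), Ikzf1 (-0.36), Pou2f2 (0.35) and Tcf4 (0.49). Ikzf1, which encodes Ikaros, was 167 and 172 RPKM in naive and 131 and 132 RPKM in expanded cells, neither beyond 1.5-fold nor shown to lie inside it. Pou2af1, the coactivator that Oct factors recruit to immunoglobulin promoters, was the member that rose, from 294 and 299 to 494 and 530 RPKM (0.79, adjusted p = 0.018). That call was lost without naive replicate 1 or expanded replicate 2, and Pou2af1 reached 1068 RPKM in plasmablasts.

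**Figure D3:**
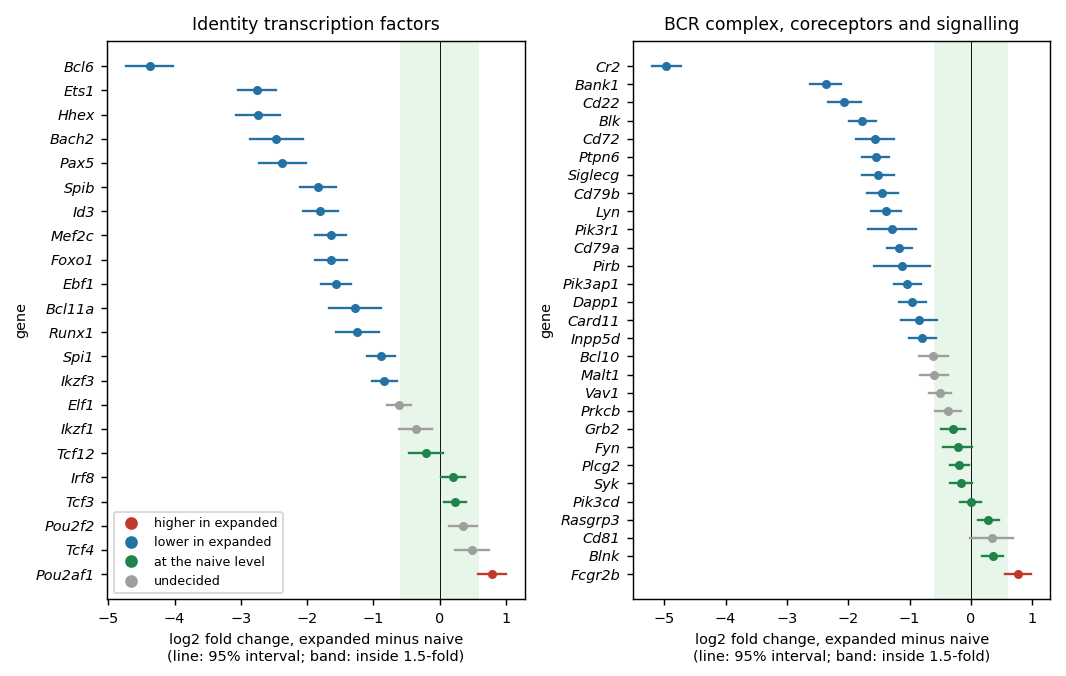
Log2 fold change of expanded minus naive (x axis) for the identity transcription factors (left) and for the BCR complex, coreceptors and signalling genes (right, 1 member not drawn), with 95% intervals from the quasi-likelihood fit as lines and the band inside 1.5-fold shaded. Bcl6 at -4.38 and Cr2 at -4.97 lie farthest left, and Tcf3, Irf8, Tcf12, Syk and Plcg2 are among those inside the band.

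The list of the BCR complex and its coreceptors was mostly lower, with 8 of 10 members falling (background 22.2%) and 1 rising (background 24.9%). A further 1 was undecided and none was at the naive level (background 14.7%), with a median of -1.31. The list leaves out the immunoglobulin chains of the receptor itself, of which Ighm and Igkc rose. Cd79a and Cd79b, the signalling chains of the receptor, were 2533 and 2351 RPKM and 2165 and 2096 RPKM in naive cells. In expanded cells Cd79a was at 1069 and 1099 RPKM (-1.17) and Cd79b at 776 and 791 RPKM (-1.44), so both stayed among the abundant transcripts. Cr2, the complement receptor CD21, fell most, from 122 and 129 to 4.09 and 3.93 RPKM (-4.97, adjusted p = 7.7e-11). Cd72 (-1.57), Siglecg (-1.51) and Pirb (-1.12), which encode inhibitory receptors as Cd22 does, also fell, and Pirb lost its call without expanded replicate 2. Fcgr2b, the inhibitory Fc receptor, was the exception and rose from 54.7 and 53.2 to 89.5 and 94.2 RPKM (0.77, adjusted p = 0.030). The Fcgr2b call was lost without naive replicate 1, naive replicate 2 or expanded replicate 2. Cd81, which encodes a tetraspanin, was 84.2 and 88.3 RPKM in naive and 107 and 111 RPKM in expanded cells and was undecided, but at the naive level in a fit to the 4 libraries alone.

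Downstream of the receptor the list was split between genes that fell and genes at the naive level. Of 20 BCR signalling genes tested, 9 fell (background 22.2%), 7 were at the naive level (background 14.7%), 4 were undecided and none rose (median -0.61). Syk, the kinase that binds the phosphorylated receptor chains, was 262 and 274 RPKM in naive and 247 and 231 RPKM in expanded cells (interval -0.35 to 0.02, adjusted p = 0.0035). Plcg2, the phospholipase that produces the calcium signal, was 199 and 204 RPKM in naive and 179 and 174 RPKM in expanded cells (adjusted p = 0.0027). These calls held in every one of the 11 alternative fits, those with a library left out included. The other held members were Grb2, Fyn, Pik3cd, Rasgrp3 and Blnk, whose log2 fold changes ran from -0.29 for Grb2 to 0.35 for Blnk. Whether their calls stand in the alternative fits was not examined. The largest falls were those of Bank1, a scaffold of B cells, from 333 and 354 to 70.2 and 63.0 RPKM (-2.37), and of the Src family kinase gene Blk, from 207 and 190 to 57.8 and 58.7 RPKM (-1.77). Btk lies on the X chromosome and was removed before the fit. It was 108 and 106 RPKM in naive and 58.4 and 56.3 RPKM in expanded cells, and was called lower where the removed genes were kept (log2 fold change -0.92).

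**Figure D4:**
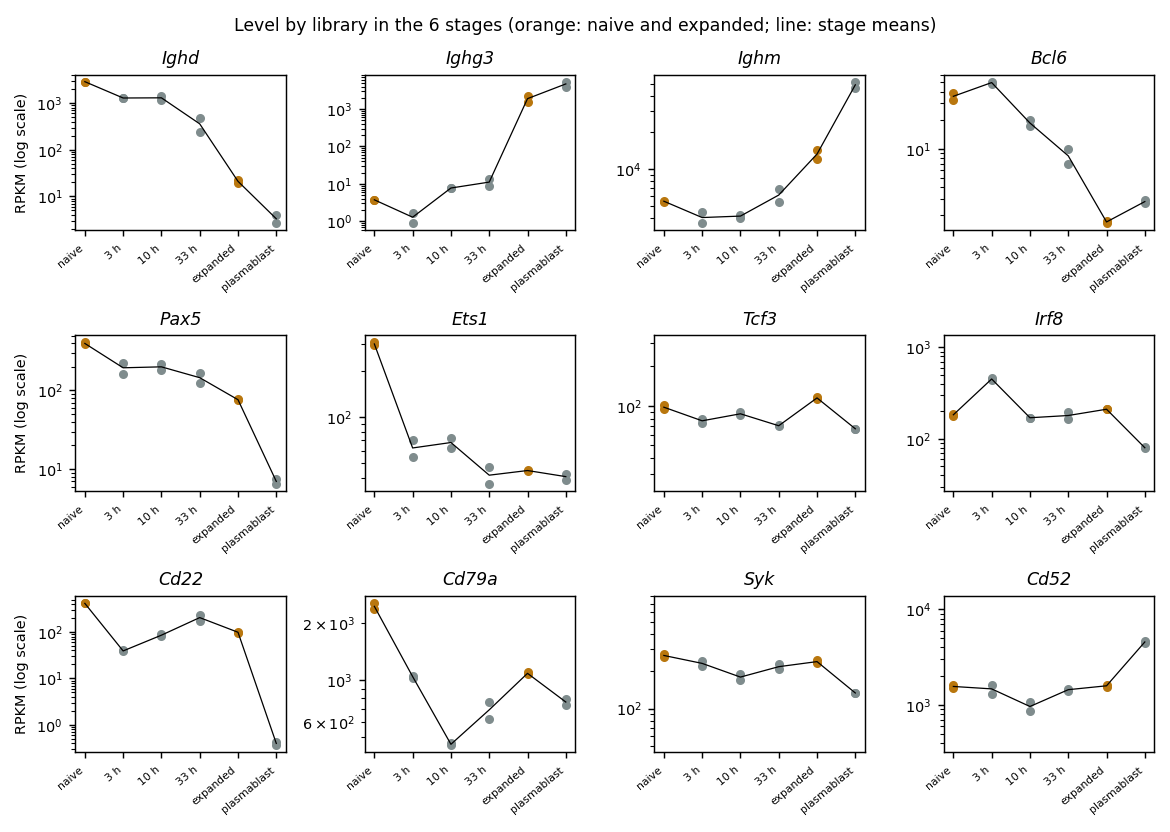
RPKM on a log scale (y axis, ranges differ between panels) in each library of the 6 stages (x axis) for 12 genes, with naive and expanded libraries in orange, the other stages in grey and a line through the stage means. Ighd, Bcl6, Pax5, Ets1, Cd22 and Cd79a are lower in expanded than in naive cells, Ighg3 and Ighm are higher, and Tcf3, Irf8, Syk and Cd52 are at the naive level.

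Among 17 surface genes of mature B cells, 11 fell (background 22.2%), 2 rose (background 24.9%), 1 was at the naive level and 3 were undecided (median -1.75). Fcer2a, the low-affinity IgE receptor CD23 of follicular cells, fell from 761 and 818 to 23.4 and 17.8 RPKM (-5.26). Fcmr, the Fc receptor of IgM, fell from 1990 and 2029 to 64.4 and 74.6 RPKM (-4.85). Cd52, a small glycoprotein of the lymphocyte surface, was at the naive level, with 1524 and 1607 RPKM in naive and 1619 and 1562 RPKM in expanded cells, and the libraries of the groups overlapped. Cd24a rose from 295 and 289 to 1083 and 1018 RPKM (1.85, adjusted p = 4.3e-08). Tnfrsf13b, the receptor TACI for BAFF and APRIL, rose by 0.80, a call lost without naive replicate 2 or expanded replicate 1. Ms4a1, which encodes CD20, was 928 and 1061 RPKM in naive and 495 and 426 RPKM in expanded cells (-1.11).

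Every one of the 11 genes of the MHC class II list, which includes Cd74 and Ciita, fell (background 22.2% for lower). Their log2 fold changes ran from -1.96 to -4.08, with a median of -2.63. The summed level of the list was 41700 and 40390 RPKM in naive and 9164 and 9080 RPKM in expanded cells. Cd74, the invariant chain that occupies the groove of new class II molecules, was the most abundant at 22250 and 21010 RPKM in naive and 5498 and 5594 RPKM in expanded cells (-1.96). H2-Aa fell from 7786 and 7794 to 1216 and 1173 RPKM (-2.71), and H2-Ab1 (-2.12) and H2-Eb1 (-2.13) fell as well. The largest fall was that of H2-Oa (-4.08), followed by H2-Ob (-3.07), which together encode the modulator H2-O of peptide loading. H2-Eb2 fell by 3.06. H2-DMa (-2.63), H2-DMb1 (-2.31) and H2-DMb2 (-2.76), the peptide exchange factor, fell by similar amounts, and reads of the adjacent DMb copies could be split. Ciita, the coactivator required for class II transcription, fell from 138 and 133 to 30.5 and 25.8 RPKM (-2.26, adjusted p = 1.9e-05). H2-Aa had stood at 6550 RPKM at 3 h, 558 RPKM at 10 h and 1374 RPKM at 33 h, and the expanded value lay between those of 10 and 33 h.

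Because the class II genes moved together, their promoters are shown. The RefSeq promoter table (GRCm38.p6, 250 bases before to 50 after each start) held 9 promoters of 8 of the 11 genes. The Y box core ATTGG, searched on both strands, was present in 8 of these 9 promoters (88.9%) and in 37.4% of all 32851 promoters of the table. For 4 of the most abundant class II genes with the motif near the start, the 180 bases from 160 before to 20 after the start are given 5′ to 3′ on the strand of the gene, with the motif (or its complement CCAAT) in capitals. H2-Aa lies on the minus strand (chr17:34287804-34287983), and H2-Eb1 (chr17:34305707-34305886), H2-DMb2 (chr17:34145089-34145268) and H2-Oa (chr17:34092219-34092398) on the plus strand.
H2-Aa: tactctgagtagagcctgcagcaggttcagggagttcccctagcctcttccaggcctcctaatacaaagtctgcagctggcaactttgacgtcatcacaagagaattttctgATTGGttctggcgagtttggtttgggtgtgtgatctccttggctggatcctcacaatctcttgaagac
H2-Eb1: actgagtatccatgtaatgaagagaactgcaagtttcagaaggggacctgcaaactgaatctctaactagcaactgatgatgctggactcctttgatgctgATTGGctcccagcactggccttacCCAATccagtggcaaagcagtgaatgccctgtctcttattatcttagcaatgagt
H2-DMb2: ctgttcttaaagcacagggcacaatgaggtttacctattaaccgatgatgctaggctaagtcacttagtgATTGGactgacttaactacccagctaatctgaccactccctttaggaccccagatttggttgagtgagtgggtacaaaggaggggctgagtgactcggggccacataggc
H2-Oa: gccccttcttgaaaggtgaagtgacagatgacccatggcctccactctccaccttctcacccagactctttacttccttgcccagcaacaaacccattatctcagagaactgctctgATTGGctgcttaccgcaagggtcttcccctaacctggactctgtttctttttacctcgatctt
The match began 48 bases before the start in H2-Aa, 59 in H2-Eb1 on the plus strand, 90 in H2-DMb2 and 43 in H2-Oa. A match describes the letters of this window and not a bound site.

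Receptors that guide B cells to and through lymphoid tissue were mostly lower, with 9 of 15 falling (background 22.2%) and a median of -1.75. The rest were 3 that rose (background 24.9%), 1 at the naive level and 2 undecided. S1pr1, the receptor for egress into blood and lymph, fell from 158 and 161 to 12.5 and 12.2 RPKM (-3.70). Ccr10, a chemokine receptor of mucosal plasma cells, rose from 0.086 and 0.022 to 3.27 and 5.36 RPKM (6.16, or 7.45 without naive replicate 1), and Ccr9 rose to 1.19 and 1.55 RPKM (2.37), both low levels. Itgb2, the β2 integrin chain, was at the naive level, with 68.9 and 69.9 RPKM in naive and 61.6 and 63.2 RPKM in expanded cells. Of 11 marginal zone and follicular genes, 7 fell (background 22.2%) and 3 rose (background 24.9%), with a median of -1.81. The share that rose was near that of all genes. Cd36, a scavenger receptor of marginal zone B cells, rose from 16.8 and 19.0 to 204 and 180 RPKM (3.42), and Cd9 rose by 1.67, whereas Cr2 and Fcer2a gave the largest falls.

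Genes known from germinal centre and memory B cells moved in both directions. Of 13 tested, 6 rose (background 24.9%), 3 fell (background 22.2%) and 4 were undecided (median 0.86), so the share that fell was near that of all genes. Zbtb32, a repressor of memory B-cell responses, rose from 0.965 and 1.31 to 155 and 148 RPKM (7.07), and was already at 147 RPKM at 33 h. Bcl6 and Pdcd1lg2, the ligand PD-L2, gave the largest falls, the latter from 7.34 and 7.06 to 0.359 and 0.518 RPKM (-4.05).

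The class switch machinery rose in part, with 12 of 22 tested higher (background 24.9%), none lower, 3 at the naive level and 7 undecided. Polq, a polymerase of end joining, rose from 0.332 and 0.345 to 4.82 and 5.26 RPKM (3.90). Xrcc5, the Ku80 subunit of end joining, was at the naive level, with 18.6 and 20.9 RPKM in naive and 22.0 and 20.9 RPKM in expanded cells. That call was lost whichever library was left out, with scaling by library size alone and with a minimum of 10 counts per library.

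Genes of the plasma cell program rose in the CD22+ CD138- cells, although the gate left out CD138+ plasmablasts. Of 14 plasma cell regulators, 10 rose (background 24.9%), 1 fell (Sdc1) and 3 were undecided, with a median of 1.68. Prdm1 (Entrez 12142, chr10:44437174-44528558), which encodes Blimp-1, rose from 0.603 and 0.475 to 44.6 and 48.4 RPKM (6.42, SE 0.28, adjusted p = 1.4e-08). It stood at 8.95 ± 3.58 RPKM at 33 h and 111 ± 8 RPKM in plasmablasts. Hid1, of the secretory route, rose from 0.082 and 0.024 to 6.10 and 10.2 RPKM (7.13, or 8.34 without naive replicate 1). Xbp1 (68.4 and 71.9 to 426 and 486 RPKM) and Irf4 (54.1 and 52.2 to 146 and 163 RPKM), factors of plasma cell formation named after their values were seen, rose by 2.70 and 1.54. Of 35 secretory pathway genes, 31 rose (background 24.9%), none fell, 1 was at the naive level and 3 were undecided (median 1.57). Sec24d, a coat protein of vesicles leaving the endoplasmic reticulum, rose from 1.59 and 1.62 to 20.4 and 26.5 RPKM (3.87). Sdf2l1, of the chaperone complex there, rose from 15.5 and 14.2 to 166 and 172 RPKM (3.51). Derl2, of the route that returns misfolded proteins for degradation, was the member at the naive level (10.5 and 11.2 against 12.9 and 13.0 RPKM), a call lost whichever library was left out and with scaling by library size alone. The summed level of this list was 2383 and 2452 RPKM in naive and 7731 and 8359 RPKM in expanded cells.

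Genes of DNA replication and mitosis were higher almost throughout. All 32 mitosis genes rose (background 24.9%), by 1.66 to 5.87 on the log2 scale with a median of 4.65, and their summed level went from 112 and 113 to 2075 and 2077 RPKM. Hmmr, a protein of the spindle, rose from 0.845 and 0.852 to 50.8 and 48.3 RPKM (5.87), and Ccnb1, cyclin B1, from 1.01 and 0.737 to 43.6 and 42.1 RPKM (5.60). Of 36 DNA replication genes, 33 rose (background 24.9%), none fell (background 22.2%), 1 was at the naive level (background 14.7%) and 2 were undecided (median 2.41). Rrm2, the small subunit of ribonucleotide reductase, rose from 3.94 and 3.52 to 168 and 171 RPKM (5.50), and Cdc6, which loads the replicative helicase, from 0.446 and 0.643 to 23.3 and 24.1 RPKM (5.46). Cdt1, its partner in loading, was at the naive level, with 36.5 and 35.1 RPKM in naive and 32.1 and 33.9 RPKM in expanded cells. It lost that call without naive replicate 2 or expanded replicate 2.

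The promoters of the mitosis genes are shown because the list rose as a whole. The core TTTGAA of the cell cycle homology region, an element known from promoters of genes that peak in G2 and M phase, was searched on both strands. It was present in 20 of 28 promoters of 27 mitosis genes (71.4%), in 4 of 33 promoters of 28 DNA replication genes (12.1%), and in 17.9% of all 32851 promoters. For the 4 mitosis genes with the largest rise among those with a match in the same 180-base window, the sequence is given with the core or its complement TTCAAA in capitals. Hmmr (chr11:40733418-40733597), Ccnb2 (chr9:70421535-70421714) and Cdk1 (chr10:69352893-69353072) lie on the minus strand and Ube2c (chr2:164769769-164769948) on the plus strand.
Hmmr: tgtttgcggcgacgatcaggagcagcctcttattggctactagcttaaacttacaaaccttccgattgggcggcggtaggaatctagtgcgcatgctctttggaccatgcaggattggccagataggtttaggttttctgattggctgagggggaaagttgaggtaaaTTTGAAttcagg
Ube2c: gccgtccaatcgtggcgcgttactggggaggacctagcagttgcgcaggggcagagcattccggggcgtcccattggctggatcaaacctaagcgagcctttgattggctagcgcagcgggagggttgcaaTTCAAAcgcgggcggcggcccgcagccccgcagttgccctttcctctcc
Ccnb2: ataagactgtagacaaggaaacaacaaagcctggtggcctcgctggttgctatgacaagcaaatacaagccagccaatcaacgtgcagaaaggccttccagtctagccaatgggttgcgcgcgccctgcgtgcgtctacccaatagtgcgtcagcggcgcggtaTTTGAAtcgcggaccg
Cdk1: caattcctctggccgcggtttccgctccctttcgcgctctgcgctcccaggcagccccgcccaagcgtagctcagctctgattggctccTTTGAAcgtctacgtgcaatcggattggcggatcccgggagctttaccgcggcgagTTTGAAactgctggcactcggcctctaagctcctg
The match nearest the start began 29 bases before it in Ube2c and 15 bases before it in Cdk1, and at base 9 from the start in Hmmr and base 5 in Ccnb2. Ccnb2 (5.02), Cdk1 (5.02) and Ube2c (5.31), named through this display, encode cyclin B2, its kinase and a ubiquitin-conjugating enzyme of mitotic exit. The octamer ATGCAAAT, the motif of Oct factors, was found in 1 of 28 promoters of 18 identity transcription factors (Elf1, 3.57%), against 1.74% of all promoters, and of the immunoglobulin constant genes Jchain was the one with a promoter in the table, with no match.

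Genes linked to quiescence were lower in expanded cells. Of 21 tested, 19 fell (background 22.2%), 1 rose (background 24.9%) and 1 was undecided (median -1.51). Klf4, a Krüppel-like factor that restrains division of naive B cells, fell from 2.84 and 3.29 to 0.115 and 0.197 RPKM (-4.31). Txnip, an inhibitor of glucose uptake, fell from 196 and 202 to 14.7 and 15.7 RPKM (-3.71), and had reached 21.2 RPKM at 3 h. Cdkn2c, the CDK inhibitor p18, rose from 7.96 and 7.29 to 16.1 and 16.1 RPKM (1.08). Tsc22d3, a glucocorticoid-induced gene on the X chromosome that was removed before the fit, was 44.5 and 24.4 RPKM in naive and 2.06 and 1.87 RPKM in expanded cells.

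The activation list had a median near 0 (-0.03), with 7 of 24 genes higher (background 24.9%), 5 lower (background 22.2%), 1 at the naive level and 11 undecided, shares of higher and lower genes near those of all tested genes. Nfkbia, the inhibitor of NF-κB, was at the naive level with 153 and 136 RPKM in naive and 140 and 119 RPKM in expanded cells, after 862 RPKM at 3 h. It lost that call without naive replicate 2 or expanded replicate 1. Cd80, a costimulatory ligand, rose from 0.208 and 0.114 to 7.20 and 6.12 RPKM (5.30), and Nfkbiz, an NF-κB cofactor, from 1.20 and 1.01 to 26.8 and 25.9 RPKM (4.57), against 506 RPKM at 3 h. Icosl, the ligand of the costimulator ICOS on T cells, fell from 74.3 and 76.3 to 0.556 and 0.535 RPKM (-7.10, SE 0.30), and Egr3 fell by 3.06. Myc, named after its value was seen, was 31.1 and 28.9 RPKM in naive and 37.4 and 39.8 RPKM in expanded cells and was undecided, with 770 RPKM at 3 h.

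Biosynthetic genes were largely higher. Of 32 ribosome biogenesis genes, 21 rose (background 24.9%), none fell, 3 were at the naive level and 8 were undecided (median 0.89). Rrp1b rose by 2.30 and Gnl3, nucleostemin, by 1.71, whereas Ubtf, a factor of RNA polymerase I, was at 69.5 and 74.6 RPKM in naive and 61.8 and 61.0 RPKM in expanded cells, at the naive level. Pes1, of the large subunit pathway, was also at the naive level (0.22). Ubtf lost that call without naive replicate 1 or either expanded library, and Pes1 without naive replicate 2 or expanded replicate 2. Of 18 glycolysis genes, 12 rose (background 24.9%), 2 fell (background 22.2%), 2 were at the naive level and 2 were undecided (median 1.36). Hk2, an inducible hexokinase, rose from 1.37 and 1.17 to 9.74 and 9.31 RPKM (2.90) and the lactate transporter gene Slc16a1 by 2.75, whereas the constitutive Hk1 (-0.31) and Gpi1 (-0.05) were at the naive level. The call of Gpi1 stood in all 11 alternative fits, whereas that of Hk1 was lost with DESeq2 size factors, with no filter on low counts, and without naive replicate 1 or either expanded library. Pdk1, which restrains entry of pyruvate into mitochondria, fell by 1.90, and the glucose transporter gene Slc2a3 by 1.28.

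Of 20 sterol and fatty acid genes, 13 rose (background 24.9%), 3 fell (background 22.2%), 1 was at the naive level and 3 were undecided (median 1.60). Idi1, an enzyme of cholesterol synthesis, rose most (3.38), from 4.11 and 4.65 to 45.0 and 45.8 RPKM. The cholesterol exporters ran the other way, as Abca1 fell from 29.8 and 21.7 to 0.083 and 0.146 RPKM (-7.84, SE 0.32, adjusted p = 2.7e-09) and Abcg1 from 30.2 and 23.8 to 0.748 and 0.753 RPKM (-5.17). Srebf1, a regulator of lipid synthesis, was at the naive level (-0.14). Of 16 genes of the Bcl2 family, 11 rose (background 24.9%), 1 fell (background 22.2%) and 4 were undecided. Bcl2 fell from 21.2 and 17.8 to 9.67 and 8.45 RPKM (-1.11), whereas Bcl2l1, which encodes the survival protein Bcl-xL, rose from 3.21 and 3.37 to 37.1 and 48.3 RPKM (3.70). Bik, a gene of the death-promoting side, had no count in naive cells and 0.212 and 0.350 RPKM in expanded cells, at least 2.59-fold higher against 3 counts per library.

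Of 16 genes of LPS sensing tested, 9 fell (background 22.2%), 3 rose (background 24.9%) and 4 were undecided (median -0.89). Tlr1 fell from 66.0 and 65.8 to 12.4 and 11.6 RPKM (-2.46). Cd14, a coreceptor of LPS mainly on myeloid cells, was 0.335 and 0.440 RPKM in naive and 0.067 and 0.040 RPKM in expanded cells (-2.76), low values in both groups. The adaptor genes Ticam2 (1.92) and Tirap (1.07) rose, the former from 4.32 and 3.69 to 15.9 and 14.5 RPKM. Of 21 interferon-stimulated genes, 18 fell (background 22.2%) and 3 rose (background 24.9%), with a median of -2.70. Ifit3 fell from 16.6 and 10.4 to 0.301 and 0.270 RPKM (-5.56, SE 0.84) and Rtp4 fell by 5.41. Isg15 rose from 8.40 and 8.51 to 39.8 and 43.1 RPKM (2.29) and Ifih1, a sensor of double-stranded RNA, by 2.48. Several members had been higher at 33 h than in expanded cells, Rtp4 with 13.5 RPKM among them.

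Over the whole table, the genes with the largest rises among those of an average log2 CPM of at least 5 included, besides Ighg3 and Ighg1, Tmed6, Asns, Zbtb32, Ighg2b and Tent5c. Tmed6, of the family of cargo receptors between endoplasmic reticulum and Golgi, rose from 0.137 and 0.449 to 75.6 and 89.5 RPKM (8.22), and its log2 fold change was 7.51 without naive replicate 1 and 9.20 without naive replicate 2. Asns, the asparagine synthetase, rose from 0.169 and 0.302 to 53.0 and 58.7 RPKM (7.93, SE 0.76). Tent5c, a poly(A) polymerase active in plasma cells, rose from 1.06 and 0.879 to 88.0 and 106 RPKM (6.62) and reached 663 RPKM in plasmablasts. Above the same average level and with more than 3 counts in a library of each stage, the largest falls were those of Abca1, Icosl and Ighd, followed by Ifi208 (-6.17), Rasgef1b (-5.70), Treml2 (-5.47), Fcgrt (-5.47) and Kbtbd11 (-5.31). Ifi208, an interferon-inducible gene, went from 31.6 and 25.7 to 0.444 and 0.342 RPKM. Fcgrt, which encodes the neonatal Fc receptor that protects IgG from degradation, went from 40.1 and 43.3 to 1.14 and 0.725 RPKM.

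At the other end, abundant genes at the naive level were ranked by standard error alone, which does not rank the strength of the call. Of the genes at the naive level, 186 had at least 100 RPKM in naive cells. The smallest standard errors among them were those of Rpl7, Rpl8, Gm12174, Rps3 and Gm10132. Rpl7 was 1398 and 1393 RPKM in naive and 1362 and 1322 RPKM in expanded cells (-0.06, SE 0.07), and Rpl8 was 3865 and 3842 against 3543 and 3408 RPKM (-0.15). Ribosomal protein genes have many processed copies, so their reads could be shared, and the predicted genes Gm12174 (-0.11) and Gm10132 (-0.26) are named as the files list them. Rps3 (-0.33) was inside the limits with all 4 libraries, and undecided whichever of them was left out, and Gm10132 was undecided without naive replicate 1.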

How the data were processed

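The authors sequenced TruSeq libraries of polyA RNA as read pairs (Illumina NextSeq). They used Rsubread to align to mm10 and its featureCounts, with inbuilt Entrez annotation, to count reads per gene. The deposited counts of the 12 libraries are neither normalized nor filtered, and come with the exon length of each gene. Strand setting and the counting of pairs are not given in the sources used here. The 12 files of single samples equalled the table of the series.

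Of 27179 genes, 25275 were matched to RefSeq (GRCm38.p6), which gave symbols and coordinates. As in the methods of the study, unmatched IDs, variable immunoglobulin segments and genes of the mitochondrion, of ribosomal RNA and of the X or Y chromosome were taken out. The 23700 genes that stayed held 84.0% to 89.1% of all counts. Using edgeR 4.0.16 (R 4.3.3, limma 3.58.1), filterByExpr kept 12750 genes and TMM scaled the libraries. The robust quasi-likelihood fit, of a single mean per stage, took in all 12 libraries. The naive level was tested with 2 one-sided tests on the log2 fold change, its standard error and the total degrees of freedom. RPKM used TMM-scaled sizes. A group with at most 3 counts per library was taken as the floor, and folds against it are bounds that cover counting error only. Replicates are biological duplicates by the methods.

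Every member of the sort marker, immunoglobulin constant, identity factor, BCR complex and MHC class II lists could be named. Of each other list the rule took the 2 largest rises, the 2 largest falls and the 2 genes at the naive level with the highest naive RPKM. From the whole table it took the 8 largest rises and falls and the 5 abundant genes at the naive level with the smallest standard errors. Other names were chosen after their values were seen, and some genes that the rule takes are not reported here. The comparison, its members and the lists were chosen with earlier results of these data known.

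The steps were tested on simulated data, with 200 of 12750 genes changed between naive and expanded libraries. Calls were made for 52% of genes changed 2-fold, 98% changed 4-fold and 100% changed 8-fold, and for 1 unchanged gene. Of genes changed exactly 1.5-fold, 8% were placed at the naive level, as were 70.5% of the unchanged genes. The changed genes were drawn from those above a minimum of expected counts. Adjusted p-values depend on the share of changed genes, and 47.2% were called changed in the data. The simulated rates therefore do not carry over to the data. Alternatives were other scalings (DESeq2 1.42.0 size factors, library size), other filters, the 4 libraries alone, a replicate block, keeping the removed genes, leaving out each library, DESeq2's Wald test, the F-test and other margins.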

Additional observations from a re-analysis of the deposited data

Results flagged for a closer look

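Variable immunoglobulin segments were removed before the fit, so the comparison above does not use them. Their share of the total counts was 1.13% and 1.28% in the expanded libraries and 0.439% and 0.435% in the naive libraries, which flagged it as a signal outside the main measurement above that of the untreated cells. Where the removed genes were kept, 161 of these segments were higher in expanded cells, 2 were lower, 2 were at the naive level and 67 were undecided. Over all 13854 genes of that fit, 3443 were higher, 3068 were lower and 1950 were at the naive level. Reads of related segments could be split between them.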

How the results depend on the processing

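The numbers of genes higher and lower stayed within 1.5 times of 3180 and 2835 under every alternative except the F-test with no fold threshold, which gave 4812 and 4502. DESeq2's Wald test gave 2507 and 2235. The genes at the naive level depended on the margin and on the number of libraries. A 2-fold margin gave 4865 genes, 7 identity factors and 1 gene of the BCR complex and coreceptors, and the narrowest margin tried gave 0 genes and 0 identity factors, with 869 genes and 0 factors at an unadjusted p under 0.05 in edgeR. Leaving out a library gave 784 to 922 genes and 0 to 1 identity factors (fewer samples, wider intervals), naive replicate 1 giving 922, naive replicate 2 giving 891, expanded replicate 1 giving 786 and expanded replicate 2 giving 784. A fit to the 4 libraries alone gave 5 identity factors and 1 gene of the BCR complex and coreceptors at the naive level, and the cause was not tested. In the fit of all 12 libraries at the 1.5-fold margin, edgeR placed 0 genes of the BCR complex and coreceptors at the naive level, also at an unadjusted p under 0.05. Library size alone moved the share of calls that were higher from 52.9% to 55.6%. The replicate block gave 3164 higher, 2824 lower and 1832 at the naive level. The replicate numbers name the samples, and the sources do not say whether equal numbers were paired. The deviations of naive 1 and expanded 1 correlated at 0.0043 over genes. With 2 libraries a stage this is a single correlation, which cannot decide on pairing. Of the 136 genes taken by the naming rule, 113 had the same call in every one of up to 11 fits that kept the test and the margin, and none reversed direction. These were 59 of 61 lower and 41 of 45 higher genes, but 9 of 22 genes at the naive level and 4 of 8 undecided genes. With 2 libraries a group, small changes can be missed.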
